A study of Mus musculus with 3 samples.

Results

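Collagen genes were examined for DLX3 binding and for H3K4me3 in mouse suprabasal keratinocytes, the epidermal cells that have left the basal layer and begun to differentiate. The members are the protein-coding genes of the mm10 RefSeq annotation whose symbol is Col, a number, the letter a and a number. Col17a1, a collagen of the hemidesmosome, was left out, which leaves 43 of 21900 protein-coding genes. They were divided into 11 fibrillar collagens, 9 collagens of basement membranes (types IV, VII, XV and XVIII) and 23 others. The study immunoprecipitated chromatin of wild type BALB/c keratinocytes with anti-Dlx3, with anti-H3K4me3 or with nonspecific IgG, and sequenced 1 library for each antibody. DLX3 is a transcription factor with a homeodomain that acts in epidermis, hair follicles and teeth, and H3K4me3 is a histone mark of active promoters. No treatment is given for any group, the sample labels call the animals adult, and the series text calls them neonatal. The DLX3 and H3K4me3 libraries each have 1 deposited peak list, and the IgG library was not analysed here. With 1 library for each antibody there is no replicate spread, so the values below are counts and descriptions of these lists, without a test.

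Collagens are secreted or membrane-bound proteins of the extracellular matrix whose chains wind into a helix built on repeats of glycine followed by a pair of other residues. Fibrillar collagens form the cables of dermis, bone and cartilage and in skin are made mainly by fibroblasts. Network-forming type IV collagen builds the basement membrane under the basal keratinocytes, and type VII collagen forms the anchoring fibrils that fasten this membrane to the dermis. The remaining types decorate fibrils, form beaded filaments or short networks, or span the cell membrane.

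The promoters that the results turn on are shown first, as the reference sequence of RefSeq on GRCm38.p6 (mm10) from C57BL/6J and not of the BALB/c animals. Each runs 5′ to 3′ along the gene's own strand from 250 bases before to 50 bases after the annotated start. Capitals mark every match, on either strand, to any of 6 short motifs. The homeodomain core was searched as TAATT, and as TAATTG in a longer form that contains the shorter one. The AP-1 site was searched as TGANTCA. The motif of the CCAAT box was searched under its own letters. The GC box was searched as GGGCGG. The TATA box was searched as TATAAA. Col11a2 is shown as the collagen promoter with a DLX3 peak over it, and the Col18a1 sequence is the internal start whose H3K4me3 peak holds a DLX3 peak. Col4a1 and Col4a2 share 1 H3K4me3 peak, the highest-scoring at a collagen start. Col5a1 has H3K4me3 that is strong for a collagen gene, though below the median score of all genes with H3K4me3 at a start. Col1a2 and Col7a1 have weak H3K4me3, and Col3a1 has neither kind of peak.
Col11a2 (chr17:34038888-34039187, + strand): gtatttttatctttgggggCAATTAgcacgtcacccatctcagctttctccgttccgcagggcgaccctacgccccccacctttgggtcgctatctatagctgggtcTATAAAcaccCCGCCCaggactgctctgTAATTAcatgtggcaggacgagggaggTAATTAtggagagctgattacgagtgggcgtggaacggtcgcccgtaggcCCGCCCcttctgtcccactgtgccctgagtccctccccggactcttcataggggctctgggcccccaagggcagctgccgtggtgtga
Col18a1 (chr10:77113656-77113955, - strand): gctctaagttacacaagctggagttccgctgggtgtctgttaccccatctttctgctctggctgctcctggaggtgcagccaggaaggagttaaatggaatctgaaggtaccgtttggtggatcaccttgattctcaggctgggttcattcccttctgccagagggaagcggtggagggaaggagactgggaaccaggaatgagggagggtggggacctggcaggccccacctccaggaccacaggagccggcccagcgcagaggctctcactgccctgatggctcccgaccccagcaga
Col4a1 (chr8:11312777-11313076, - strand): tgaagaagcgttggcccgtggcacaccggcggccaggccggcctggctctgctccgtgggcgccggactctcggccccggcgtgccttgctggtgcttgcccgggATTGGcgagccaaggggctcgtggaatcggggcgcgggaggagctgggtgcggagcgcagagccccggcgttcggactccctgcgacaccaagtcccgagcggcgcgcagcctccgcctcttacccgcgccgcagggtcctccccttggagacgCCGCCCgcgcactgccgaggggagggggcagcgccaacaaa
Col4a2 (chr8:11312555-11312854, + strand): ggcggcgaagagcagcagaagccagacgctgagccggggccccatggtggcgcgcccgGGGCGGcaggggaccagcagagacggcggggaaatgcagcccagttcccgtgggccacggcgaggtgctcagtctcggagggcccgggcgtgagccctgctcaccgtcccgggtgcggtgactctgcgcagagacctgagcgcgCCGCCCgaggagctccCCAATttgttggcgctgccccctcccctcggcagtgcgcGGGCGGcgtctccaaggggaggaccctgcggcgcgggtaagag
Col5a1 (chr2:27886175-27886474, + strand): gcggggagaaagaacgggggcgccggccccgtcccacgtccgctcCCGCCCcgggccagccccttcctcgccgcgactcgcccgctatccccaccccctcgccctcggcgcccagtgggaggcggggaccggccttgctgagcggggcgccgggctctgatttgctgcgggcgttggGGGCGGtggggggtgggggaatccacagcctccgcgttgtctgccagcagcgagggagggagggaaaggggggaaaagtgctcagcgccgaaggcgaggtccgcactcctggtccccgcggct
Col1a2 (chr6:4505368-4505667, + strand): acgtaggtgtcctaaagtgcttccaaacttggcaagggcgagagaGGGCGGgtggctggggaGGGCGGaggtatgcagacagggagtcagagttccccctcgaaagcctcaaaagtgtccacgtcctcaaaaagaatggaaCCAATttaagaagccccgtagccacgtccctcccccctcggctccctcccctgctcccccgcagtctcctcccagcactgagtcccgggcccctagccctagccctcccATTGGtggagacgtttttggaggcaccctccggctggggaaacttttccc
Col7a1 (chr9:108953336-108953635, + strand): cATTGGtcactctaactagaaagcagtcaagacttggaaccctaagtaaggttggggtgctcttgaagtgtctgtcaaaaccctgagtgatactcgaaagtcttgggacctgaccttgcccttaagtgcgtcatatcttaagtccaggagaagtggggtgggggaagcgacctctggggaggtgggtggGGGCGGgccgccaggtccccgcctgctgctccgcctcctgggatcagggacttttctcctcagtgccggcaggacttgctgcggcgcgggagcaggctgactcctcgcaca
Col3a1 (chr1:45311288-45311587, + strand): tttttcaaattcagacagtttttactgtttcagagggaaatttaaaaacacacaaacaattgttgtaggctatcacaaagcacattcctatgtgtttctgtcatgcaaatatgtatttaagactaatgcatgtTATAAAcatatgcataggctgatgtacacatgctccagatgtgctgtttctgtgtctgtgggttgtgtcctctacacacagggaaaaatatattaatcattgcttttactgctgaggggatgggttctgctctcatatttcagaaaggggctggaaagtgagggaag

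The windows over the whole genes were compared first. A DLX3 peak lay over the gene span with 5 kb on either side in 10 of 43 collagen genes (23.3%), against 41.4% of all protein-coding genes. An H3K4me3 peak lay in that window in 33 of 43 (76.7%), against 66.2% of all. Against these backgrounds, which are not matched for length, collagen genes thus had H3K4me3 at a near or higher share and DLX3 at a lower one. Both kinds were found at 9 genes (20.9%), against 39.7% of all protein-coding genes. Of the 43, H3K4me3 alone was found at 24, DLX3 alone at 1 (Col22a1) and neither at 9. Over all 21900 protein-coding genes these counts were 5797, 382 and 7026.

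Collagen genes are long, with a median span of 114.5 kb against 17.1 kb for all protein-coding genes, so their windows could meet more peaks. Per 100 kb searched they held 0.240 DLX3 peaks, against 1.24 over all protein-coding genes, and 0.721 H3K4me3 peaks, against 1.63. These backgrounds are not matched for length, and over all genes the DLX3 density was 2.45 for spans under 30 kb and 0.611 for those over 100 kb. Collagen genes over 100 kb held 0.236 DLX3 peaks per 100 kb, so the gap at like length was smaller. Among spans over 100 kb, 8 of 26 collagen genes (30.8%) had a DLX3 peak, against 58.1% of all genes of that length, and 21 of 26 (80.8%) had H3K4me3, against 84.1%. Among spans of 30 to 100 kb the DLX3 counts were 1 of 8 against a background of 53.1%, and among those under 30 kb 1 of 9 against 34.5%. The lower DLX3 share of collagen genes therefore appeared in each of the 3 span classes. The H3K4me3 share was 4 of 8 collagen genes against 80.3% in the middle class and 8 of 9 against 58.2% in the shortest.

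By class, DLX3 was found at 2 of 11 fibrillar collagen genes (18.2%), 4 of 9 basement membrane collagen genes (44.4%) and 4 of 23 others (17.4%). H3K4me3 was found at 9 of 11 fibrillar (81.8%), 9 of 9 basement membrane (100%) and 15 of 23 other collagen genes (65.2%). The basement membrane class had the largest share with either mark. Its DLX3 share was close to the background of 41.4%, which is not matched for length. These 9 genes share peaks, since Col4a1 with Col4a2, Col4a3 with Col4a4 and Col4a5 with Col4a6 lie side by side, so the 9 genes rest on 10 distinct H3K4me3 and 5 distinct DLX3 peaks. Their spans are also longer, with a median of 135.1 kb against 45.1 kb for the fibrillar and 106.5 kb for the other collagens. Of the 8 basement membrane genes with spans over 100 kb, 4 had DLX3, against 58.1% of all genes of that length. These 8 genes held 0.445 DLX3 peaks per 100 kb, against 0.611. At like length the DLX3 share of the class was thus near the background, with too few genes to tell it from the background. The density was lower, and it counts the DLX3 peak in the windows of both Col4a1 and Col4a2 once for each gene. No test was made of the differences between classes.

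**Figure D1:**
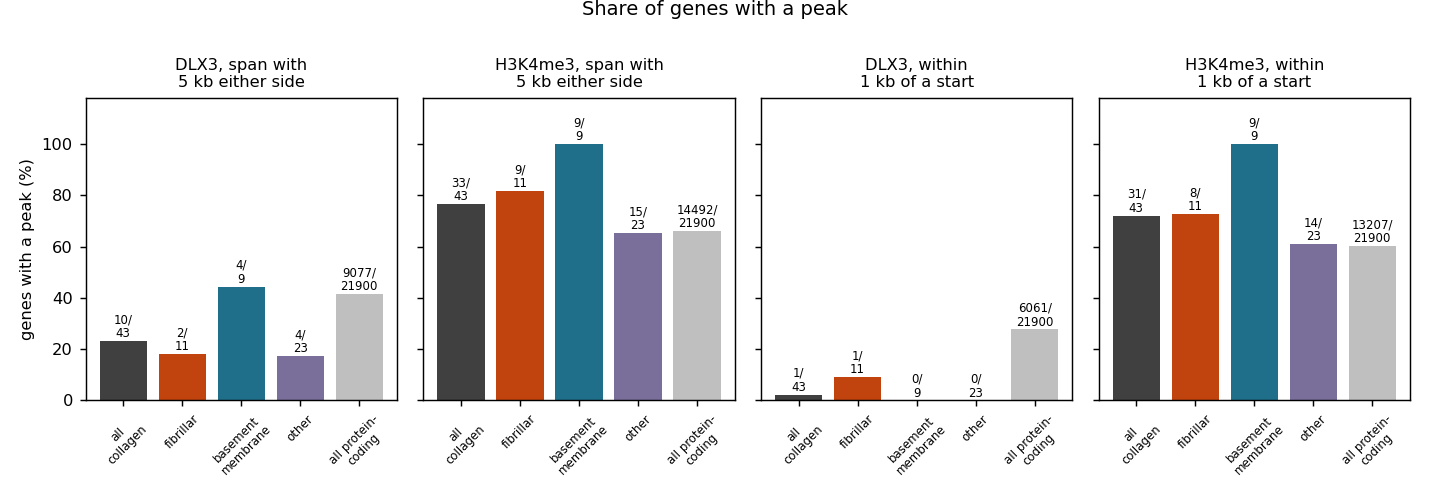
Share of genes (%, vertical axis) with a DLX3 or H3K4me3 peak in all collagen genes, in each class and in all protein-coding genes, with counts above the bars. The left panels use the span with 5 kb on either side and the right panels 1 kb around a start. DLX3 within 1 kb of a start was found at 1 of 43 collagen genes, while H3K4me3 was found at 31 of 43.

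At annotated starts the contrast between the antibodies was wider. H3K4me3 lay within 1 kb of a start in 31 of 43 collagen genes (72.1%), against 60.3% of all protein-coding genes. DLX3 lay within 1 kb of a start in 1 of 43 (2.33%), against 27.7%. That gene was Col11a2. Starts came from the promoter table for 34 members, and the other 9, whose strand is not in that table, were judged by either end of the span. Over all protein-coding genes 79.9% had a start in the table, and the rest were judged in the same way. Within 5 kb of either end, DLX3 was found at 5 of 43 collagen genes (11.6%), against 35.8%.

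The H3K4me3 peaks at collagen starts had low scores. The deposited score is in the range of the score that MACS 1.4 gives, a measure of how far a peak exceeds its background, and rises with depth and peak width, so it was compared only within a list. Over the 31 marked collagen genes the highest-scoring H3K4me3 peak within 1 kb of a start had a median score of 240.27 (interquartile range 131.41 to 455.78), against 1261.81 (634.0 to 2034.88) over the 13207 marked protein-coding genes. In 27 of the 31 (87.1%) it was below the median of the whole H3K4me3 list (823.67), against 32.4% of all marked genes. The peaks were also narrower, with a median width of 1746 bp against 2387 bp, except in the fibrillar class, whose median was 2413 bp, against 1537 bp in the basement membrane class and 1714 bp in the others. The class medians of the score were 362.97 for fibrillar, 261.93 for basement membrane and 202.66 for other collagens, each below the lower quartile of all marked genes.

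**Figure D2:**
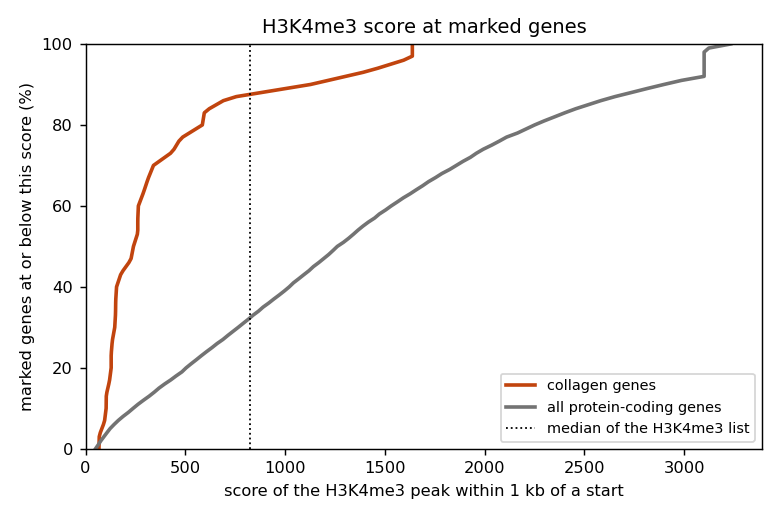
Cumulative share of marked genes (%, vertical axis) by the score of the H3K4me3 peak within 1 kb of a start (horizontal axis), for 31 collagen genes and for all 13207 marked protein-coding genes. The collagen curve lies to the left over most of its range, with medians of 240.27 and 1261.81, and no collagen gene reached the top quartile of scores.

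Genes with weak H3K4me3 had DLX3 less often in the annotation as a whole. The DLX3 count was therefore also read within quartiles of H3K4me3 score, a division chosen after the values were seen. A DLX3 peak overlapped the highest-scoring start H3K4me3 peak in 1 of 31 marked collagen genes (3.23%), that of Col11a2, against 46.1% of all marked genes. Counting any H3K4me3 peak within 1 kb of a start added Col18a1, with DLX3 on the lower-scoring of its start peaks, for 2 of 31 (6.45%), against 46.6%. In the lowest quartile of H3K4me3 score (up to 633.87), which held 26 of the 31, DLX3 was on the highest-scoring peak in 1 of 26 collagen genes (3.85%), against 14.2% of all genes of that quartile. Against other weakly marked genes the DLX3 share of collagen genes was thus lower by a smaller margin than against all marked genes. Scores were not matched within the quartile, where collagen genes lay lower. Of marked collagen genes 50% scored up to 240.27, and of all marked genes 10% scored up to 238.72. The second quartile held 2 collagen genes and the third held 3, none with DLX3 on the peak, where all genes had 40.4% and 57.5%, and the top quartile (72.4% of all genes) held no collagen gene. By peak width, the narrowest quartile held 17 collagen genes with DLX3 on the highest-scoring peak in 1, against 21.7% of all genes in it. The wider quartiles held 5, 6 and 3 collagen genes, none with DLX3 on the highest-scoring peak, against 42.8%, 53.7% and 66.4% of all genes. The inner Col18a1 peak with DLX3, not the one used to place that gene, was 3103 bp wide, as wide as the narrowest peaks of the widest quartile.

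The 13 distinct DLX3 peaks in the collagen windows were mostly weak. Their scores ran from 54.2 to 173.59 with a median of 70.43, 10 of the 13 lay below the median of the whole DLX3 list (83.35), and 1 was in its top 20%. Of the 13, 9 were centred inside a collagen span, and 4 overlapped an H3K4me3 peak, where 42.1% of the whole list does. Those 4 lay at Col11a2, Col18a1, Col4a3 and Col23a1, and at Col4a3 and Col23a1 the peak sat at the start of a neighbouring gene. By centre, 5 of the 13 were nearer to the start of a non-collagen gene than to a collagen start. Where no strand was in the table, either end of a span was taken as a start. The peaks inside Col4a3 and Col14a1 were thus measured to the end away from the H3K4me3 peak within 1 kb of the span end, so the count may be too low.

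**Figure D3:**
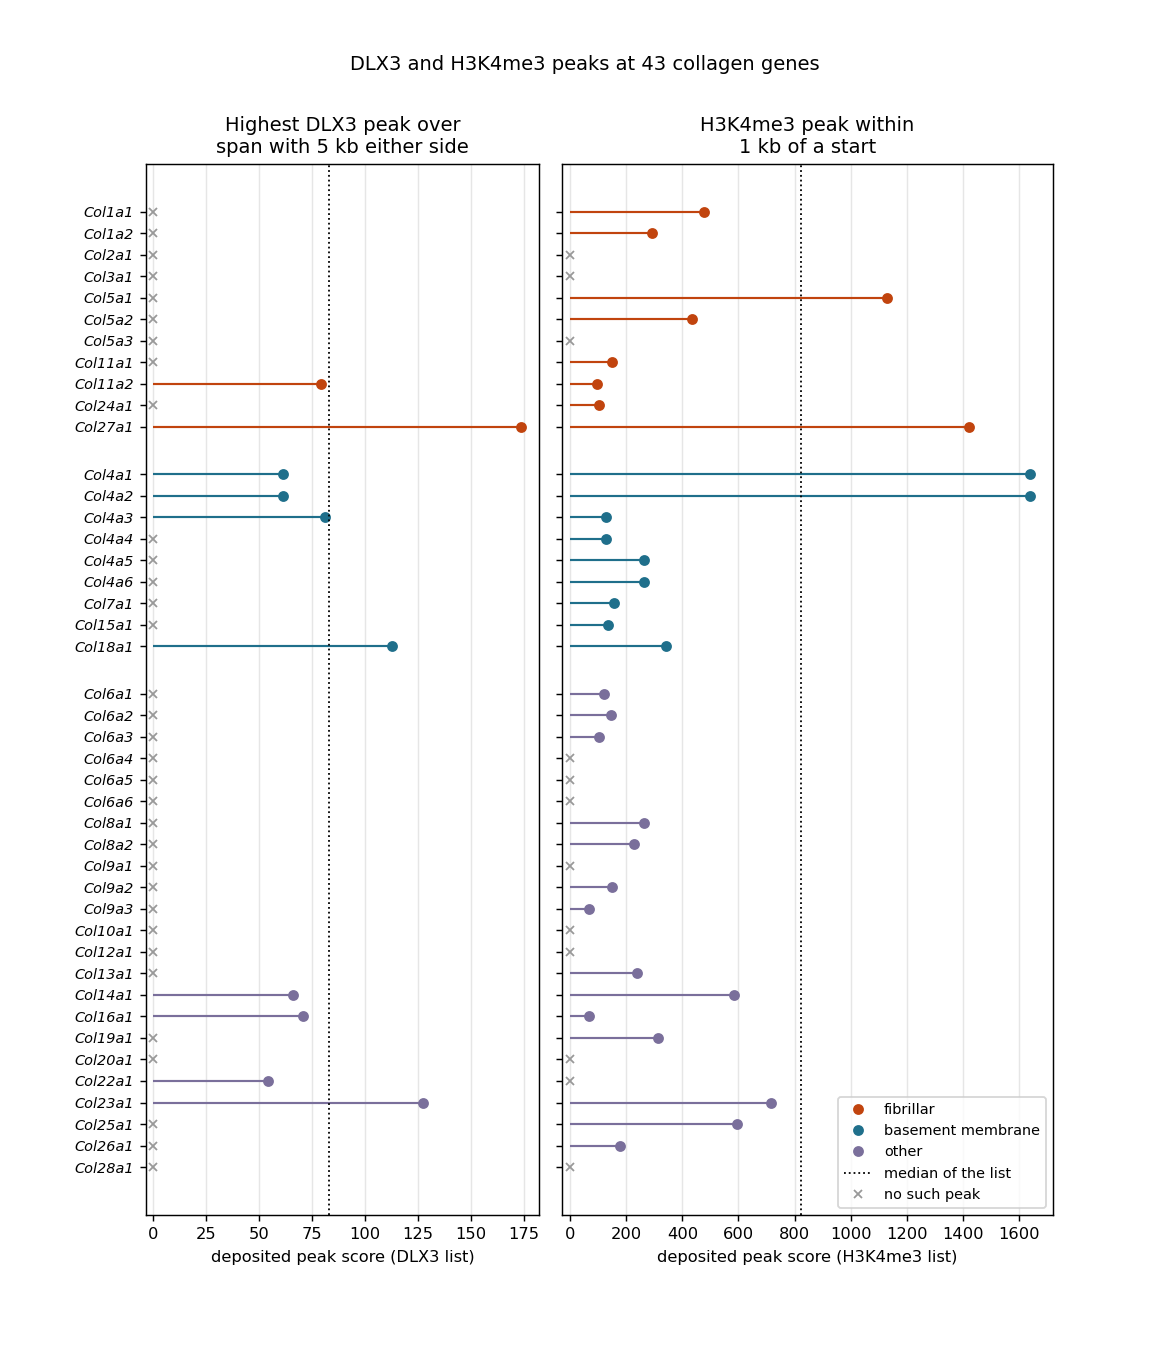
Deposited score (horizontal axes) of the highest DLX3 peak over the span with 5 kb on either side (left) and of the highest H3K4me3 peak within 1 kb of a start (right) for each of 43 collagen genes, grouped by class. Crosses mark genes with no such peak and dotted lines the median of each list. DLX3 scores end at 173.59 (Col27a1), and H3K4me3 scores above the list median are seen at Col4a1, Col4a2, Col27a1 and Col5a1.

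Among the fibrillar collagens, the genes of the main dermal fibrils had H3K4me3 without DLX3, or neither. Col1a1, which encodes the major chain of type I collagen, had an H3K4me3 peak of score 476.21 and width 2401 bp (chromosome 11, 94936142 to 94938542). Col1a2, its partner chain, had one of score 290.58 and width 1986 bp (chromosome 6, 4504855 to 4506840). Col3a1, the type III chain that mixes into the same fibrils, had neither kind of peak within 5 kb, and its span lay 151.6 kb from the nearest H3K4me3 peak and 485.4 kb from the nearest DLX3 peak. The promoters of Col3a1 and Col1a2 also differ in composition, since the 300 bases shown for Col3a1 have 37.7% G and C and no CpG, while those of Col1a2 have 61.0% and a ratio of observed to expected CpG of 0.47.

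The type V chains, which start and limit the width of type I fibrils, had H3K4me3 at Col5a1 and Col5a2 and not at Col5a3. Col5a1 had an H3K4me3 peak of score 1127.8 and width 4358 bp (chromosome 2, 27885234 to 27889591), wider than 94.3% of the list. Col5a2 had one of score 435.36 and the nearest to Col5a3 lay 23.4 kb from its span. No DLX3 peak lay in the window of any of them, and the nearest was 62.9 kb (Col5a3), 92.5 kb (Col5a1) and 331.8 kb (Col5a2) from the span.

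The cartilage fibril genes held the DLX3 peak closest to a collagen start. Col11a2, a chain of cartilage type XI collagen, had a DLX3 peak of score 79.52 and width 528 bp (chromosome 17, 34038638 to 34039165), centred 237 bp from its start. It overlapped an H3K4me3 peak of score 94.97 and width 1503 bp, and covered 278 of the 300 promoter bases shown above. The Col11a2 promoter held 5 matches to TAATT, among them a pair of TAATTA sites that read the same on both strands and 1 match to TAATTG. Matches to TAATT were found in 3 of 37 collagen promoters (8.11%), those of Col11a2, Col10a1 and Col28a1, and in 23.5% of all protein-coding promoters of this length. Col10a1 and Col28a1 had no peak of either kind, and these matches are a description of the sequence only. Rxrb, a nuclear receptor gene, lies just upstream on the same strand, with its own start 6551 bp from the centre of the DLX3 peak.

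Col11a1, the other type XI chain, had H3K4me3 of score 150.39 and its nearest DLX3 peak lay 400.0 kb from the span. Col2a1, the chain of cartilage type II collagen, had an H3K4me3 peak of score 81.31 whose edge lay 1277 bp from the nearest end of the span, just outside the 1 kb window. Col24a1, a minor fibrillar collagen, had H3K4me3 of score 104.17, above 13.9% of the list.

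Col27a1, a fibrillar-type collagen of cartilage and developing tissues, had the highest DLX3 score among the collagens. Its first DLX3 peak (score 173.59, width 750 bp; chromosome 4, 63249999 to 63250748) scored above 88.0% of the list and lay inside the gene, 34961 bp from the start. A second (score 70.43; 63310569 to 63311117) lay 95431 bp from the start, and neither overlapped H3K4me3. The H3K4me3 peak at the Col27a1 start had a score of 1420.43 and a width of 3714 bp and held no DLX3 peak. Mark and factor at Col27a1 were thus both present in the gene and apart in position.

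All 9 basement membrane collagen genes had H3K4me3 within 1 kb of a start. Col4a1 and Col4a2 encode the chains of the type IV collagen found in nearly every basement membrane, and are read in opposite directions from starts 21 bp apart. Their shared H3K4me3 peak had a score of 1637.81 and a width of 2948 bp (chromosome 8, 11311533 to 11314480), above 74.5% of the list. The promoters shown for Col4a1 and Col4a2 share 78 bases on opposite strands, have 74.0% and 73.7% G and C, and each hold a CCAAT match and at least 1 GC box match. A DLX3 peak of score 61.65 lay inside Col4a1, 5343 bp from its start and within 5 kb of Col4a2, and a second of score 56.92 lay inside Col4a2, 99129 bp from its start.

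Col4a3 and Col4a4, whose chains are best known from the filtering membrane of the kidney, overlap by 114 bp at their adjoining ends and share an H3K4me3 peak of score 128.6 and width 1284 bp (chromosome 1, 82586284 to 82587567). Col4a4 had no DLX3 peak. Col4a3 had one of score 57.58 inside the gene and one of score 81.28 outside it, 52 bp from the start of its neighbour Mff, a mitochondrial fission gene, where the H3K4me3 peak had a score of 1737.27. The DLX3 peak with H3K4me3 in the Col4a3 window thus stood at Mff.

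Col4a5 and Col4a6, on chromosome X, are also read in opposite directions, from starts 1343 bp apart, and their chains are part of the skin basement membrane. The H3K4me3 peak at the Col4a5 start had a score of 261.93 and the one at the Col4a6 start 54.25, both below the list median. No DLX3 peak lay within 208.2 kb of Col4a6 or 518.2 kb of Col4a5. The whole DLX3 list has 153 peaks on chromosome X and the H3K4me3 list 483.

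Col7a1, whose product forms the anchoring fibrils and is made largely by keratinocytes, had H3K4me3 at its start with a score of 155.59 and a width of 2190 bp (chromosome 9, 108953004 to 108955193). This score was above 20.1% of the list only. Col7a1 had no DLX3 peak in its window, and the nearest (score 195.67) lay 6489 bp from the span, just outside the 5 kb flank. A second H3K4me3 peak in its window (score 218.37) was centred inside Pfkfb4, 1986 bp from an end of Ucn2.

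Col15a1 and Col18a1 encode collagens attached to basement membranes, and that of Col18a1 is the source of endostatin. Col15a1 had H3K4me3 of score 134.22 and no DLX3 peak within 110.9 kb. Col18a1 has a pair of starts in the promoter table, and each had H3K4me3: 340.49 (width 1706 bp) at the outer start and 285.75 (width 3103 bp; chromosome 10, 77111087 to 77114189) at the inner one. A DLX3 peak of score 112.98 and width 549 bp (77111805 to 77112353) lay inside the inner H3K4me3 peak, 1626 bp from that start, and none lay at the outer start. Col18a1 and Col11a2 were the 2 collagen genes at which DLX3 overlapped an H3K4me3 peak at the gene's own start. DLX3 itself lay within 1 kb of the start only at Col11a2. The inner Col18a1 promoter held none of the searched motifs, and its CpG ratio was 0.23, against 0.54 at the outer one.

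**Figure D4:**
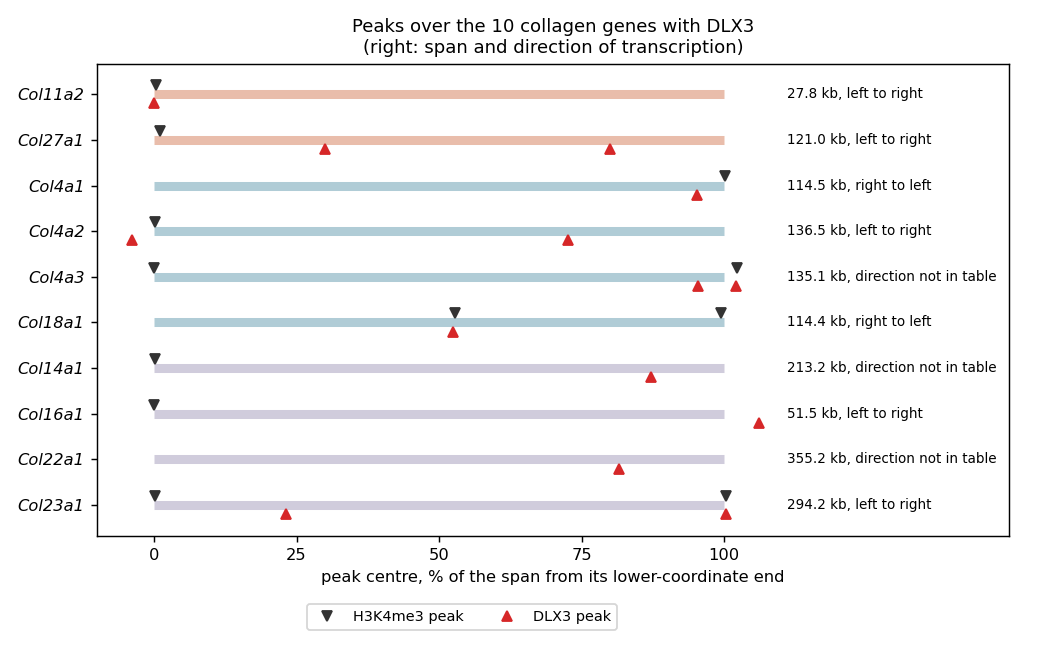
Centres of DLX3 (upward triangles) and H3K4me3 peaks (downward triangles) in the windows of the 10 collagen genes with DLX3, as a percentage of the span from its lower-coordinate end (horizontal axis), with the span and direction of transcription on the right. H3K4me3 sits at gene ends in 9 of the 10, and DLX3 coincides with it at Col11a2, Col18a1, Col4a3 and Col23a1.

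Of the other collagens, the transmembrane types had H3K4me3 at all 3 of their genes. Col23a1 had a score of 714.47, Col25a1 596.42 and Col13a1 240.27 at the start. Col23a1 also had a DLX3 peak of score 62.08, inside the gene and 67955 bp from the start, and one of score 127.51 at its far end. The second was centred 10 bp from the start of Phykpl, a neighbouring metabolic gene, inside an H3K4me3 peak of score 1129.72. Col13a1 and Col25a1 had no DLX3 peak in the window.

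The fibril-associated types decorate the surface of other collagens. Col14a1, of dermal and tendon fibrils, had H3K4me3 of score 585.35 and a DLX3 peak of score 66.24, inside the gene and 27377 bp from its nearest end. Col12a1, its close relative, had an H3K4me3 peak of score 787.38 and width 3650 bp whose edge lay 1258 bp from the nearest end, and no DLX3 peak. Col16a1, found near the border of epidermis and dermis, had the weakest H3K4me3 at a collagen start among those with DLX3 (score 67.28), and its DLX3 peak (71.02) lay beyond the far end, 5150 bp from the start of Pef1. Col22a1, a collagen of tissue junctions, had a DLX3 peak of score 54.2 and width 334 bp inside the gene and no H3K4me3 peak within 657.8 kb. Col19a1 had H3K4me3 of score 313.1, while Col20a1 had neither kind.

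The cartilage type IX genes differed, with H3K4me3 at Col9a2 (151.38) and Col9a3 (69.03) and none at Col9a1. The type VI genes form beaded filaments. Col6a1 (119.82), Col6a2 (146.46) and Col6a3 (103.34) had weak H3K4me3 at a start, and Col6a4, Col6a5 and Col6a6, neighbours on chromosome 9, had no peak of either kind. No type VI gene had a DLX3 peak in its window, the nearest lying 29.1 kb from Col6a6. Among the network types, Col8a1 had H3K4me3 of score 264.91, Col8a2 had 4 H3K4me3 peaks with scores between 59.91 and 238.69, and Col10a1, of growth plate cartilage, had none. Col26a1 had H3K4me3 of score 178.23 and Col28a1 had none.

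Of the 33 collagen genes without DLX3 in the window, the nearest DLX3 peak lay 5335 bp from the span at Col1a1 (score 93.71), just outside the flank, then 6489 bp at Col7a1 and 7.0 kb at Col8a2. The median distance was 47149 bp and the largest 518202 bp. A DLX3 peak lay within 20 kb of 9 of the 33 spans and beyond 100 kb of 12. These distances were not measured for other protein-coding genes, so they have no background beside them. Just inside the limit, the Col16a1 peak lay 2731 bp from the span.

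Promoter composition differed between collagen genes with and without the mark. The 26 collagen promoters covered by H3K4me3 had a median of 61.3% G and C and a CpG ratio, observed over expected, of 0.55, and the 11 without it had 55.0% and 0.22. Over all protein-coding promoters the medians were 62.3% and 0.78 with H3K4me3 and 47.7% and 0.20 without. Marked collagen promoters thus had the G and C content of other marked promoters and a lower CpG ratio. Across 25 collagen genes with a marked promoter the rank correlation of the H3K4me3 score with the CpG ratio was 0.67, and across 10457 protein-coding genes it was 0.42, as a description over genes of 1 library, some of which share a peak. GGGCGG was found in 23 of 37 collagen promoters (62.2%) and 46.2% of all, CCAAT in 12 (32.4%) and 38.2%, TATAAA in 4 (10.8%) and 12.6%, and TGANTCA in 1 (2.70%), that of Col6a1, and 6.99%. TAATTG was found in 2 (5.41%) and 6.83%. Among promoters with H3K4me3 the GGGCGG share was alike, at 69.2% for collagen genes and 69.1% for all. Without H3K4me3 it was 5 of 11 collagen promoters (45.5%), against 14.0% of all.

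Genes that act on collagen were counted in the same windows. Of 21 genes for modification and folding of collagen chains, 14 had DLX3 and 21 had H3K4me3 over the span with 5 kb on either side. The highest DLX3 scores were 265.61 at P3h4 and 225.52 at P4ha1, which encode a prolyl 3-hydroxylase family member and a prolyl 4-hydroxylase chain, 182.24 at Plod1, a lysyl hydroxylase, and 152.57 at Mia3, which loads collagen for export. The P4ha1 peak was 105 bp from its start on H3K4me3, whereas the Plod1 peak was 30235 bp from its start without the mark. The P3h4 and Mia3 peaks lay on H3K4me3, 2103 and 24145 bp from a start. Serpinh1, the gene of the collagen chaperone HSP47, had H3K4me3 of score 688.42 and no DLX3. The median start H3K4me3 score of this list was 1309.5, against 240.27 for the marked collagen genes.

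Of 13 genes that process and cross-link secreted collagen, 3 had DLX3 (Loxl3, 178.08; Loxl4, 107.76; Pcolce, 58.65) and 11 had H3K4me3. None of the 13 had DLX3 within 1 kb of a start, and these peaks were centred 1998, 24592 and 10414 bp from one. Whether peaks counted for the genes that act on collagen sat at the start of a neighbouring gene was not examined. Lox, the founding lysyl oxidase, had H3K4me3 of score 239.09 and no DLX3. Of 10 collagen receptor genes, 5 had DLX3 and 8 had H3K4me3, with the highest DLX3 scores at Ddr1, a receptor kinase for collagen (192.76), Itgb1, the β1 integrin chain (133.82), Itga11 (126.84) and Itga1 (119.65). Of 9 genes of collagen-cleaving proteases, 1 had DLX3 and 3 had H3K4me3. That gene was Mmp14, a membrane-bound protease, with a DLX3 peak of score 95.88 and an H3K4me3 peak of score 2268.84. Against the backgrounds of 41.4% for DLX3 and 66.2% for H3K4me3, the shares were 66.7% and 100% for modification and folding, 23.1% and 84.6% for processing and 11.1% and 33.3% for proteases, while the receptors had DLX3 at 5 of 10 and H3K4me3 at 8 of 10.

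Markers of cell types were counted in the same windows, in which 41.4% of all protein-coding genes had DLX3 and 66.2% had H3K4me3. All 12 keratinocyte markers had H3K4me3 and 11 had DLX3, with a median start H3K4me3 score of 1083.5. Of 10 fibroblast markers, 7 had H3K4me3 and 2 had DLX3. The 6 of them marked at a start had a median score of 241.9, close to the 240.27 of the collagen genes, with Vim at 856.48, Twist2 at 435.5, Fbn1 at 314.06, Pdgfra at 169.74, Thy1 at 151.63 and Dcn at 78.7, while Lum, Dpt and Mfap5 had no H3K4me3 peak. The H3K4me3 count of the fibroblast markers was near the background. H3K4me3 was found at 1 of 5 endothelial, 3 of 5 melanocyte and 1 of 5 immune markers, and DLX3 at 2 of 5 in each of these lists, close to the background. Whether cells other than keratinocytes gave any of the collagen signal was not tested.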

How the data were processed

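ChIP-seq peak lists of 1 DLX3 and 1 H3K4me3 library from suprabasal keratinocytes were used. Bowtie 1.1.2, MACS 1.4.2, HOMER and build mm10 are named in the submitters' processing notes, without settings. The control used for peak calling, IgG or other, is not given in those notes. The authors deposited 1 list for each library, holding the position, name and score of every peak and no read counts. Depth is therefore unknown, and scores (50.01 to 3100 for 18087 DLX3 peaks, 50 to 3233.06 for 16735 H3K4me3 peaks) were compared within a list.

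Starts were shifted to count from 1. Spans came from the RefSeq table of GRCm38.p6, the assembly of mm10, and starts and promoters from its promoter table. A gene counted when at least 1 bp of a peak lay in its window. Members, classes and lists were chosen with earlier results of these data known. Any member could be named, and of each pathway list the 4 genes with the highest DLX3 score; Serpinh1 and Lox were named outside this rule, after their values were seen. The symbols of all pathway and marker lists matched a gene. The overlap code (Python 3.11.15, numpy 2.4.6, pandas 2.3.3) was tested on simulated peaks. Other flanks, windows, score limits and assignments were tried as alternatives.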

Additional observations from a re-analysis of the deposited data

How the results depend on the processing

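No paired analysis was possible because each antibody has 1 library. Of 85 values under 10 alternative settings, 53 stayed within 1.5 times the reported count and 32 did not. The DLX3 count of 10 collagen genes was 19 with a 20 kb flank (52.4% of all protein-coding genes), 5 within 5 kb of either end, 1 within 1 kb of a start, 3 with peaks at or above the median score (26.5% of all) and 1 with the top 20% of scores (12.4% of all). The share thus stayed below the background in each of these. For genes with both kinds of peak (9) the same settings gave 18, 5, 1, 2 and 0. The shares over all protein-coding genes were 50.3%, 34.4%, 27.2%, 22.4% and 6.58%. The H3K4me3 count of 33 was 6 at or above the median score (46.0% of all) and 0 in the top 20% (20.8% of all), so the H3K4me3 share lay above the background with all peaks and below it with stronger peaks.

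By class, the fibrillar DLX3 count (2) was 4 with a 20 kb flank and 1 within 5 kb of either end, within 1 kb of a start, for peaks reaching the median score and for the top 20%. The basement membrane DLX3 count (4 of 9) was 6 with a 20 kb flank, where 52.4% of all protein-coding genes had DLX3. At that flank the class thus lay above this background, which is not matched for length. The count was 2 within 5 kb of either end and 0 within 1 kb of a start. Peaks reaching the median score gave 1 and the top 20% gave 0. The DLX3 count of the other collagens (4) was 9 with a 20 kb flank, 2 within 5 kb of either end, 0 within 1 kb of a start, 1 for peaks reaching the median score, and 0 for the top 20%. The H3K4me3 counts at or above the median score were 2 fibrillar (of 9), 3 basement membrane (of 9) and 1 other (of 15), and 0 in each class in the top 20%. The higher DLX3 share of the basement membrane class was not seen within 1 kb of a start or with the top 20% of peaks. The limits of these counts are the single library for each antibody, the unknown depth, the neighbouring genes inside the windows and the members with no strand in the table.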
